A study of Drosophila melanogaster with 2 samples.

Results

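Chromatin immunoprecipitation with sequencing (ChIP-seq) recovers the DNA fragments that a protein was attached to, and a peak is a stretch where those fragments pile up. The peaks described here are those whose summit, the highest point, lay in the first intron of a protein-coding transcript. A member had its summit more than 500 bp from every annotated transcription start site (TSS), in no annotated exon and in the first intron of at least 1 protein-coding transcript of Ensembl release 115. The rule used positions and no measured value. It was met by 2180 of the 7676 peaks in the authors' conservative list, a share of 28.4% (95% Wilson interval 27.4% to 29.4%).

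The material was whole Drosophila melanogaster pupae aged 2 days, of the strain CG32121-GFP, and chromatin was sonicated to fragments of 200 to 800 bp. All animals carried a transgene that makes CG32121 joined to enhanced green fluorescent protein (eGFP), and an antibody against that tag was used. The 2 samples are biological replicates of 1 group. Neither input chromatin nor untagged pupae were analysed, and with 2 samples no test between classes of peaks was made. The sources name neither the promoter that drives the transgene nor the number of animals pooled per sample. Whole pupae mix many cell types, so a site bound in more cells and a site bound more strongly per cell cannot be told apart. Intervals on shares are 95% Wilson intervals and cover counting error only.

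The first intron is the intron nearest to where transcription starts, and in flies it often holds enhancers, insulators and the start sites of further transcripts. CG32121 encodes a protein with a BTB domain, a fold through which many fly transcription factors pair with each other. Known members of that family include broad, fruitless, tramtrack and the GAGA factor Trl. At the pupal stage the steroid hormone ecdysone drives metamorphosis by switching on a cascade of transcription factor genes.

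Most of the strongest members had summits rich in A and T, and sequences are printed to show this. Each line gives the 50 bp on both sides of a summit, on the reference strand of dm6 (RefSeq Release 6 genome), with every run of at least 6 A or T bases in capitals. The 8 host genes are among those of the 15 strongest members. Of the members not printed here, that in dnr1 went against this, with 61.4% G+C at the summit.
CG32772 chrX:4910313-4910413: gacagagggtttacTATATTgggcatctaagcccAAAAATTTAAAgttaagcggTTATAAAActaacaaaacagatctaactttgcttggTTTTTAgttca
CG32486 chr3L:3060764-3060864: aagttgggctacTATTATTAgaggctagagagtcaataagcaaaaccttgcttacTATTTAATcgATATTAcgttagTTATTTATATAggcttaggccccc
CG4496 chr2L:7188570-7188670: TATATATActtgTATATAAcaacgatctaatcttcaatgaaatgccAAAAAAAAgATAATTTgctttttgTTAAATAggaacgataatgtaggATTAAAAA
CG3726 chrX:5918853-5918953: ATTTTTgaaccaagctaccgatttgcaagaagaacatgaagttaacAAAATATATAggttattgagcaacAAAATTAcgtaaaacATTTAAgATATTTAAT
Reph chr2L:3804711-3804811: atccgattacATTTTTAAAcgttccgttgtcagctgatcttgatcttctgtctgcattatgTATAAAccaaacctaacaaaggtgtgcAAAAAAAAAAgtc
norpA chrX:4324946-4325046: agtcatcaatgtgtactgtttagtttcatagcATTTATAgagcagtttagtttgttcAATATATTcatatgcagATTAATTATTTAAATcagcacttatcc
ImpL2 chr3L:4228336-4228436: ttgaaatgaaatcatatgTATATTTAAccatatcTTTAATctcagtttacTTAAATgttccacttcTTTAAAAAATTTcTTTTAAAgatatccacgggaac
CG9663 chr2L:3302140-3302240: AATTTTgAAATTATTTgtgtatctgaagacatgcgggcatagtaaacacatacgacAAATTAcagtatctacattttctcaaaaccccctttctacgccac
Their G+C content ran from 22.8% for CG4496 to 35.6% for CG32486 and CG9663. The longest A/T run was 15 bases, in norpA, the gene for the phospholipase C of fly vision. Each sequence held at least 3 such runs, and that of CG4496 held 6. In windows centred 500 bp to each side G+C was higher than at the summit for all of these genes but Reph (26.7% against 34.7%).

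The same window is shown for strong members in 4 genes of the ecdysone response that are not among those above. Hr4 and Eip75B encode nuclear receptors, tai a coactivator of the ecdysone receptor and Eip63E a cyclin-dependent kinase.
Hr4 chrX:1947683-1947783: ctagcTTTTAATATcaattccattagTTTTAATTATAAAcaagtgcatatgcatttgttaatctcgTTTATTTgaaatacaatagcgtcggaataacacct
tai chr2L:9175330-9175430: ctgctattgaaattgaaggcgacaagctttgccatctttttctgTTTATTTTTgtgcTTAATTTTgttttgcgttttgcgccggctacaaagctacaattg
Eip75B chr3L:18009129-18009229: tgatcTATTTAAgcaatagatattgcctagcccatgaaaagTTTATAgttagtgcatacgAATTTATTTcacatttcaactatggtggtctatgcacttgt
Eip63E chr3L:3517989-3518089: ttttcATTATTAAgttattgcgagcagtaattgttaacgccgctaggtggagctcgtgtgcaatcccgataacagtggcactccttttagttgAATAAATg
Hr4 had 27.7% G+C at its summit and 41.1% in windows 500 bp to each side, and Eip75B had 32.7% and 52.0%. In tai and Eip63E the order was the opposite, at 37.6% against 23.3% and 40.6% against 34.7%.

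First introns held more peaks per length of DNA than any other class of position apart from the surroundings of TSSs. Their eligible sequence, the bases that meet the same rule, came to 20.46 Mb or 15.3% of the 6 chromosome arms, and held 106.5 summits per Mb. Later introns of protein-coding transcripts held 1102 summits, or 41.4 per Mb, and intergenic sequence held 913, or 29.0 per Mb. Exons away from TSSs held 281, or 8.82 per Mb, and sequence within 500 bp of a TSS held 3149, or 140.2 per Mb.

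The density in first introns was 2.57 times that in later introns and 3.68 times that in intergenic sequence. The authors also deposited thresholded lists for each replicate alone. In the list of replicate 1 first introns held 1336 of 4471 peaks (29.9%) at 65.3 per Mb, 2.81 times the density of later introns. In that of replicate 2 they held 1981 of 7044 (28.1%) at 96.8 per Mb, 2.60 times the density of later introns. Both replicates thus gave the same order of classes, with first introns second to TSS surroundings.

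**Figure D1:**
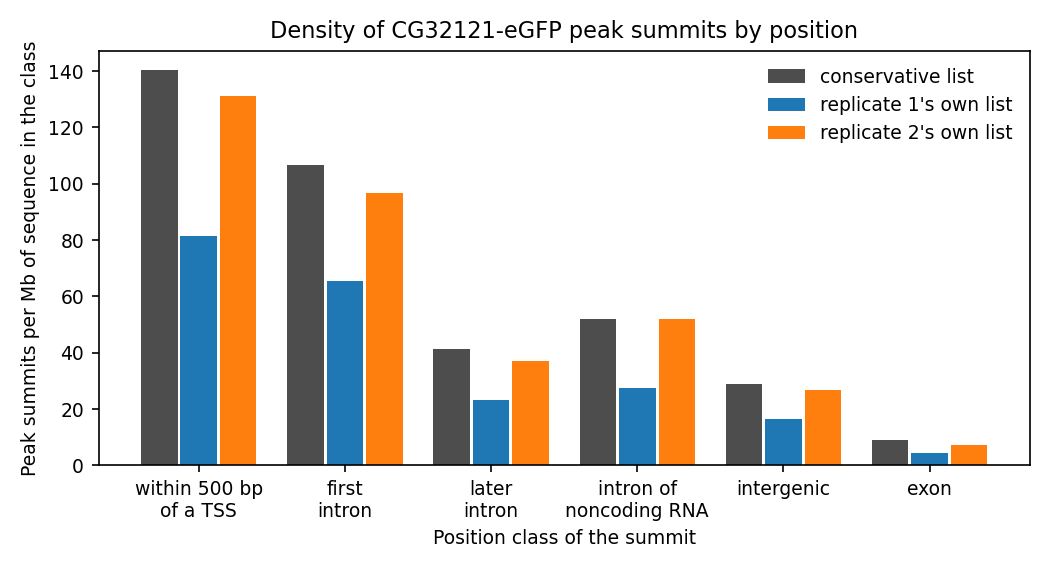
Bars give peak summits per Mb of the sequence in each position class (vertical axis), for the conservative list and the thresholded list of each replicate. First introns stood at 106.5, 65.3 and 96.8 per Mb, above later introns at 41.4, 23.3 and 37.2 and below the surroundings of TSSs at 140.2, 81.4 and 131.2.

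An intron can be first in one transcript and later in another. Of the members, 1268 (58.2%) lay in sequence that was first intron in every protein-coding transcript whose intron held it, at 103 per Mb, and 912 lay in sequence that was a later intron elsewhere, at 112 per Mb. When the 912 were counted as later introns, the density ratio of first to later introns was 1.78. Members upstream of the start codon in every host transcript numbered 1138 (102 per Mb) and members downstream of it in every host transcript 843 (108 per Mb). The other 199 lay before it in some transcripts and after it in others, at 133 per Mb.

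Density fell with distance from the nearest TSS of any gene, and at every distance it was higher in first introns than in later introns. It was 158 per Mb at 0.5 to 1 kb (496 members), 127 at 1 to 2 kb (546), 95.4 at 2 to 5 kb (610) and 89.6 at 5 to 10 kb (366). Beyond that it was 66.8 at 10 to 20 kb (138 members) and 50.9 over 20 kb (24 members). Later introns went from 61.1 per Mb in the nearest of these bins to 15.4 in the farthest, and the ratio of first to later introns stayed between 1.97 and 3.31. The lists of the single replicates gave ratios of 2.01 to 3.86 and 1.70 to 3.76. The ratio to intergenic sequence was 3.03 in the nearest bin and 9.37 in the farthest, which held 18 intergenic summits.

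**Figure D2:**
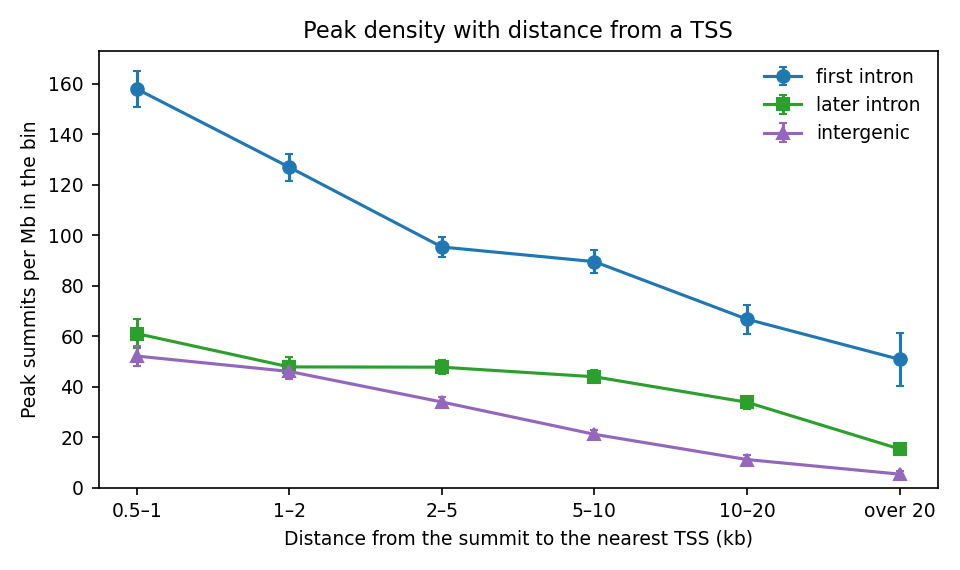
Points give peak summits per Mb (vertical axis) in bins of distance to the nearest TSS in kb (horizontal axis), for first introns, later introns and intergenic sequence of the conservative list. Bars are the square root of the count divided by the length, which covers counting error only. First introns went from 158 to 50.9 per Mb and stood above later introns and intergenic sequence in every bin.

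The median member lay 2148 bp from the nearest TSS of any gene and 3777 bp from the TSS of its own host transcript. The host's TSS was the nearest one for 1238 members (56.8%), and the other members sat nearer to another start site. The median length of the intron was 12070 bp (quartiles 5175 and 26220 bp). Introns of 2 to 5 kb had 148 members per Mb and those over 50 kb had 69.1. Among the arms the density ran from 93.9 per Mb on 2L (348 members) to 123 on 3L (490 members). The small chromosome 4 had no member in 0.07 Mb of eligible sequence.

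Just inside the 500 bp limit, at 501 bp, were peaks in CG32638 (signal 153.8), Pdcd4 (125.2), Btk (242.9) and CG3726 (127.7). Just outside were peaks in CG6891 at 500 bp (83.9) and Sec13 at 498 bp (187.6). A further 696 peaks had their summit in a first intron and in no exon but within 500 bp of a TSS. Their median signal was 128.9, beside 131.4 for the members between 500 and 1000 bp.

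The signal is the authors' value for each peak and its scale is not stated. Members had a median signal of 123.1 (quartiles 89.4 and 192.3, range 2.30 to 1561). Later introns had a median of 119.3, intergenic peaks 123.2 and peaks near TSSs 122.7. First-intron peaks were thus denser than later-intron peaks at a similar median signal: the ratio of the medians was 1.03, and 0.995 and 1.04 in the lists of replicates 1 and 2. Only peaks that passed the threshold of a list enter its medians. Members, 28.4% of all peaks, made up 24 of the 100 strongest peaks and 275 of the 1000 strongest. Peaks near TSSs, 41.0% of all peaks, made up 63 and 489. Later-intron peaks, 14.4% of all peaks, made up 5 and 109, and intergenic peaks, 11.9% of all peaks, 4 and 97.

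The strongest member lay in CG32772 on X at 4909979 to 4910747, at 1561, where replicate 1 alone had 446.6 and replicate 2 had 1029. CG32486 followed on 3L at 3060638 to 3060972 with 1558 (540.9 and 1032), and CG4496 on 2L at 7188437 to 7188922 with 1493 (462.2 and 1013). CG12769 reached 1391 (437.8 and 937.6) and CG3726 reached 1302 (441.9 and 845.2). In CG32772 and CG3726 the TSS of the host transcript was the nearest, at 1261 and 1743 bp. In the others another TSS was nearer than the host's: 524 bp against 10025 bp in CG32486, 552 against 1390 in CG4496 and 2459 against 4544 in CG12769. All 15 strongest members were in the thresholded list of each replicate, and replicate 2 was the higher in each.

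Several of these strongest hosts have known roles. Reph, at 1292 (replicates 420.4 and 850.8), is a regulator of eph expression by its full name. Adf1 encodes a transcription factor that binds the promoter of the alcohol dehydrogenase gene, and had 1281 (391.6 and 882.0). The value was 1184 (444.4 and 726.3) in dnr1, which encodes a RING-domain protein that restrains the immune deficiency pathway. In ImpL2, which encodes a secreted inhibitor of insulin signalling and is ecdysone-inducible, it was 1127 (380.4 and 753.5). A peak of 1033 (388.0 and 626.0) lay where first introns of HmgD and HmgZ, on opposite strands, overlap. These are a pair of genes for HMG-box chromatin proteins. The peak in edl, which encodes an antagonist of the ETS factor Pointed, had 1003 (324.9 and 668.8).

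The tagged gene itself held 1 member, on 3L at 13421087 to 13421192. Its value was 237.2, from 122.8 in replicate 1 and 105.7 in replicate 2. The latter was the lower there, which was so for few members. Signal from the transgene's copy of the sequence and signal from the gene's own locus cannot be told apart.

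Most members were found in the replicates' own lists. The conservative list was itself made with both replicates, so these overlaps are in part fixed by how peaks were kept. At an overlap of at least 1 bp, 1278 (58.6%, interval 56.5% to 60.7%) were in the list of replicate 1, where 55.1% of all conservative peaks were. In the list of replicate 2 there were 1705 (78.2%, interval 76.4% to 79.9%), beside 77.5% of all conservative peaks. In later introns the shares were 53.2% and 76.2%. Both lists held 1169 members, with a median signal of 179.6, and neither held 366, with a median of 79.3.

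The ranked list of the series holds for each peak a signal from each of its 2 inputs, without naming them. Spearman's rho between these was 0.771 and Pearson's r on log values 0.869 over 2180 peaks, which all share the same pair of libraries. The conservative list keeps peaks whose ranks agree between inputs, so a positive correlation is in part fixed by how peaks were kept. All peaks had 0.770 and 0.880. A summit was found within 200 bp in both replicates' ranked lists for 2093 members, with a rho of 0.774 between them, and replicate 2 was the higher in 2001 of them (95.6%), by a median factor of 1.68.

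**Figure D3:**
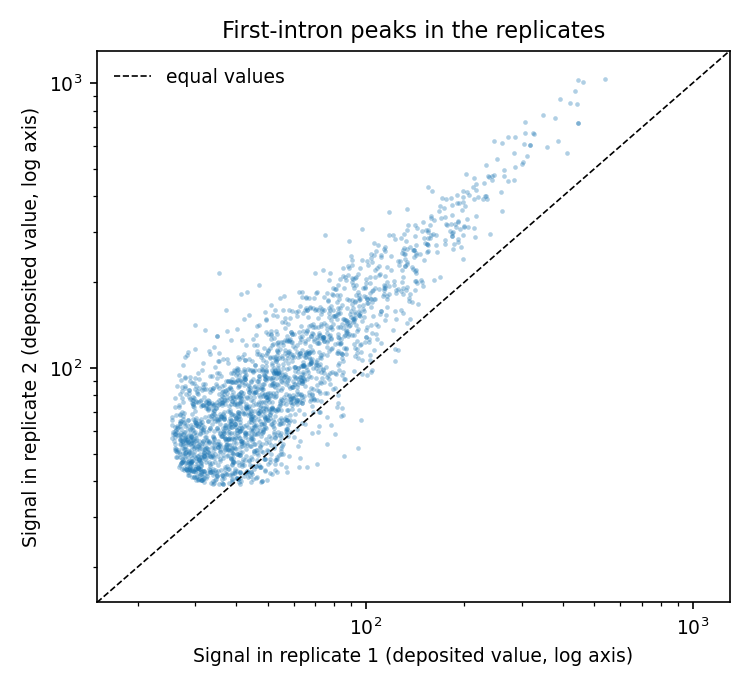
Each point is 1 of 2093 first-intron peaks, with the signal in replicate 1 on the horizontal and in replicate 2 on the vertical axis (both log). Points lie mostly above the dashed line of equal values, 2001 of them, and the strongest reach 540.9 and 1032.

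The conservative list was drawn from 91090 ranked peaks on these arms, of which 8.43% were in it. Of the 18937 ranked peaks in first introns, 2180 (11.5%) were in it, against 7.48% in later introns, 7.45% in intergenic sequence and 15.7% near TSSs.

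Some members are weak by their own statistics. The authors' q value was over 0.05 for 205 members (9.40%, interval 8.25% to 10.7%), beside 9.84% of all peaks. Their median signal was 31.9 and their highest 70.8, while all other members had at least 71.0. Of the 205, 139 (67.8%) had another conservative summit within 250 bp, beside 176 of the other 1975 (8.91%). In 113 of the 205 the joint signal was below the signal in each of the inputs compared, which was so for 1 of the others. Without the 205 the density ratio of first to later introns was 2.59.

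Of the members, 822 (37.7%, interval 35.7% to 39.8%) had another summit of the list within 1 kb. The shares were 32.8% in later introns and 33.5% in intergenic sequence. The median gap was 1410 bp, against 2041 and 1872 bp. These shares and gaps were not adjusted for density, which was 106.5 summits per Mb in first introns, against 41.4 and 29.0. Whether members cluster beyond their density was therefore not tested. The weak members beside a stronger one are part of that count.

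The 2180 members fell in 994 genes. Of 13945 protein-coding genes, 5852 had eligible first-intron sequence, and 17.0% of these held a member. A single member was seen in 525 genes, 2 in 201, and 3 or more in 268, which between them held 1298 members. A total of 70 members lay in first introns of more than 1 gene. The share of genes with a member rose with length: 2.81% of genes with up to 1 kb of eligible sequence did, 25.1% with 1 to 5 kb, 48.6% with 5 to 20 kb and 63.5% with more.

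The 15 genes with at least 10 members had 13.7 to 93.6 kb of eligible sequence, where the median of the 5852 genes was 560 bp. The highest number was in sbb, which encodes a nuclear protein of wing and nervous system patterning, with 24 members spread over 53.3 kb. Their signals ran from 79.2 to 556.2 with a median of 140.7, and 17 of the 24 were in both replicates' lists. Its strongest member, at chr2R:18302790-18303043, had 182.8 in replicate 1 and 373.5 in replicate 2. Snoo, the fly homologue of the Ski and SnoN regulators of TGF-beta signalling, held 22, with signals from 4.22 to 479.9. Every member in sbb and in Snoo lay in sequence that was a later intron in another transcript.

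In tna, a trithorax-group gene, there were 15 members with signals from 3.55 to 344.0. The junction protein gene pyd held 13. The 5 genes with 12 each were the chromatin kinase gene Tlk, simj, tou, the BTB factor gene fru and the clock factor gene Pdp1. Tlk had the highest of their signals at 924.0 (273.0 in replicate 1 and 645.5 in replicate 2). Eip75B, the integrin gene mew and CG43658 had 11. CHES-1-like, a forkhead factor gene, had the most summits per length of the 15 genes with at least 10 members, with 10 in 13.7 kb of eligible sequence. Some members overlap each other. With overlapping members joined, CHES-1-like had 9 regions, while Mnt kept 10 in 14.3 kb, so that order turned. Joined in this way, tna had 12 regions and simj 9, while sbb kept 24.

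Eip75B shows how members spread over 1 gene. Its 11 summits lay over 60.1 kb of 3L, in 52.2 kb of eligible sequence. The strongest, at 18009053 to 18009319, had 572.2 (175.9 in replicate 1 and 390.8 in replicate 2). Near the TSS of one of its transcripts, at 1471 bp, was a peak of 198.1 (76.1 and 132.6) at 18063027 to 18063422, and overlapping it a weak member of 19.5. All of the 11 except this overlapping pair lay in sequence that was a later intron in another transcript. Of the 11, 4 were in both replicates' lists.

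Genes with a first-intron peak were also compared for promoter peaks. A summit within 500 bp of a TSS of the same gene was present in 30.3% of the 5852 genes. Among the 994 hosts it was present in 558 (56.1%, interval 53.0% to 59.2%), and among the other 4858 in 1214 (24.99%, interval 23.8% to 26.2%). Hosts have longer introns. By length, the shares of hosts and other genes were 43.8% against 23.2% with up to 1 kb of eligible sequence, 51.3% against 30.1% with 1 to 5 kb, 58.5% against 26.95% with 5 to 20 kb and 68.4% against 22.5% with more. Genes with 1 annotated TSS had 40.1% against 18.8%, and those with 5 or more had 86.9% against 63.4%. In replicate 1's own list the shares were 39.9% and 16.0%, and in replicate 2's 55.6% and 23.9%.

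The gene groups below were compared by the share of their genes with eligible sequence that held a member, beside the 17.0% of all genes, and by members per Mb, beside 107 per Mb over all genes. The groups differ in intron length, and the share rises with length as given above. None of these differences was tested.

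In the ecdysone response 15 of 24 genes held a member (62.5%, interval 42.7% to 78.8%), with 67 members at 187 per Mb. The median eligible length in this list was 12.3 kb. Of all genes with 5 to 20 kb of eligible sequence, 48.6% held a member, at 118 per Mb. The cascade's receptor gene EcR held 2, the strongest with 169.9 (70.4 in replicate 1 and 91.9 in replicate 2). Its early regulators Eip75B and Eip74EF held 11 and 9. The ETS factor gene Eip74EF reached 286.6 (86.7 and 203.4). Of the later regulators, Hr4 held 4, led by 725.5 (247.3 and 476.1), Hr3 held 7, led by 474.9 (117.3 and 353.0), and ftz-f1 held 5, led by 229.7 (87.1 and 141.3). All 4 members in Hr4 lay in sequence that was a later intron in another transcript. The broad gene, br, held 1 of 441.8 (198.0 and 241.0). Both replicates' own lists gave 14 of the 24 genes.

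Of 17 genes for BTB-domain factors 12 held a member (70.6%, interval 46.9% to 86.7%), at 133 per Mb, and 10 and 11 did in the lists of replicates 1 and 2. The strongest after br were in ken, a repressor gene, at 401.2 (146.6 in replicate 1 and 251.9 in replicate 2), and in bab1, a regulator of abdominal and ovary patterning, at 334.5 (142.5 and 201.3). The sex-determination factor gene fru reached 307.4 (109.7 and 188.7). Homeodomain genes showed the lower end, with 7 of 52 (13.5%) at 34.5 per Mb. Their signals were at most 184.0, in an intron of Antp. Their median eligible length was 3.39 kb, against 6.07 kb in the BTB list.

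In the EGFR pathway 12 of 21 genes held a member (57.1%, interval 36.6% to 75.5%) at 229 per Mb, and 12 did in each replicate's list. Among ligand genes, vn reached 530.5 (183.9 in replicate 1 and 345.1 in replicate 2) and spi 113.8 (30.6 and 80.8). The receptor gene Egfr held 8, led by 526.5 (199.7 and 313.3). The adaptor gene drk had 504.8 (169.5 and 336.2). Among inhibitors, sty, which encodes Sprouty, reached 819.2 (301.0 and 520.6) and aos, a secreted antagonist, 257.2 (82.9 and 175.0). The pathway's transcription factors pnt and aop reached 208.8 and 263.7.

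In the Dpp and activin pathways 10 of 18 genes held a member (55.6%, interval 33.7% to 75.4%) at 246 per Mb. The ligand gene dpp held 3, led by 595.6 (154.9 in replicate 1 and 430.5 in replicate 2). Of the receptor genes, wit reached 920.7 (412.1 and 568.2) with 1.49 kb of eligible sequence, tkv 213.4 and put 213.1. Downstream, the SMAD gene Mad reached 235.6, the cofactor gene shn 490.3 (149.0 and 325.0) with 9 members, and the inhibitory SMAD gene Dad 133.3. Of the 54 members in this list 22 were those of Snoo.

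In the Hippo pathway 7 of 17 genes held a member (41.2%) at 280 per Mb. The upstream activator genes kibra and ex reached 615.7 (190.3 in replicate 1 and 405.7 in replicate 2) and 230.1, and the kinase gene wts 249.1 (93.0 and 140.9). In the Hedgehog pathway the count was 4 of 10, at 146 per Mb, led by the glypican gene dally at 429.1 (141.8 and 270.5). In the Wingless pathway it was 8 of 23 at 119 per Mb, led by the kinase gene sgg at 342.8 (149.9 and 193.8). In the Notch pathway it was 6 of 16 at 135 per Mb, where the ubiquitin ligase gene neur had 958.9 (359.5 and 595.3) and the receptor gene N 121.4 (41.0 and 79.8).

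Genes of cell junctions and polarity had 14 of 25 (56.0%, interval 37.1% to 73.3%) at 214 per Mb, led by Svil at 516.9 (190.8 in replicate 1 and 327.3 in replicate 2), cno at 374.7 (118.9 and 247.5) and crb at 260.3 (90.7 and 172.5). Neural genes fell into different ranges. RNA-binding protein genes of the nervous system had 11 of 21 (52.4%) at 82.2 per Mb, led by mub at 873.3 (247.3 and 628.5). Genes of neural wiring and adhesion had 11 of 64 (17.2%) at 36.6 per Mb, and ion channel genes 4 of 34 (11.8%) at 25.8 per Mb. Wiring genes had a median of 6.57 kb of eligible sequence, more than the 560 bp of all genes. The median was longer still in the list of RNA-binding protein genes. Of all genes, 48.6% of those with 5 to 20 kb of eligible sequence and 63.5% of those with more held a member. The 52.4% of the RNA-binding list lay between these shares, and the 17.2% of wiring genes lay below both.

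In the remaining lists shares and densities ran over a wide range. Muscle genes had 3 of 23 (41.7 per Mb), led by Mef2 at 238.2 (88.95 in replicate 1 and 139.9 in replicate 2). Clock genes had 5 of 12, with 24 members at 210 per Mb, of which 12 were those of Pdp1. Nuclear receptor genes had 6 of 16, with 36 members at 178 per Mb, of which 11 were those of Eip75B. The list of Polycomb and trithorax group genes, which leaves out tna, had 5 of 19, with 11 members in 0.0256 Mb (430 per Mb). Cell death and autophagy genes had 4 of 13, with 11 at 382 per Mb. Among the latter Diap1, the inhibitor of caspases, had 503.2 (177.6 and 317.3). Glycolysis genes had 1 of 9, with 2 members in 0.00443 Mb (452 per Mb), and cuticle protein genes 3 of 19, with 5 members (288 per Mb). No member lay in 90 chemosensory receptor genes, where a count of 0 (taking 3 counts as its limit, in place of the Wilson interval) allows a share of up to 3.33%, or in 10 ribosomal protein genes (up to 30%), and their eligible introns were short, with medians of 66 and 99 bp.

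**Figure D4:**
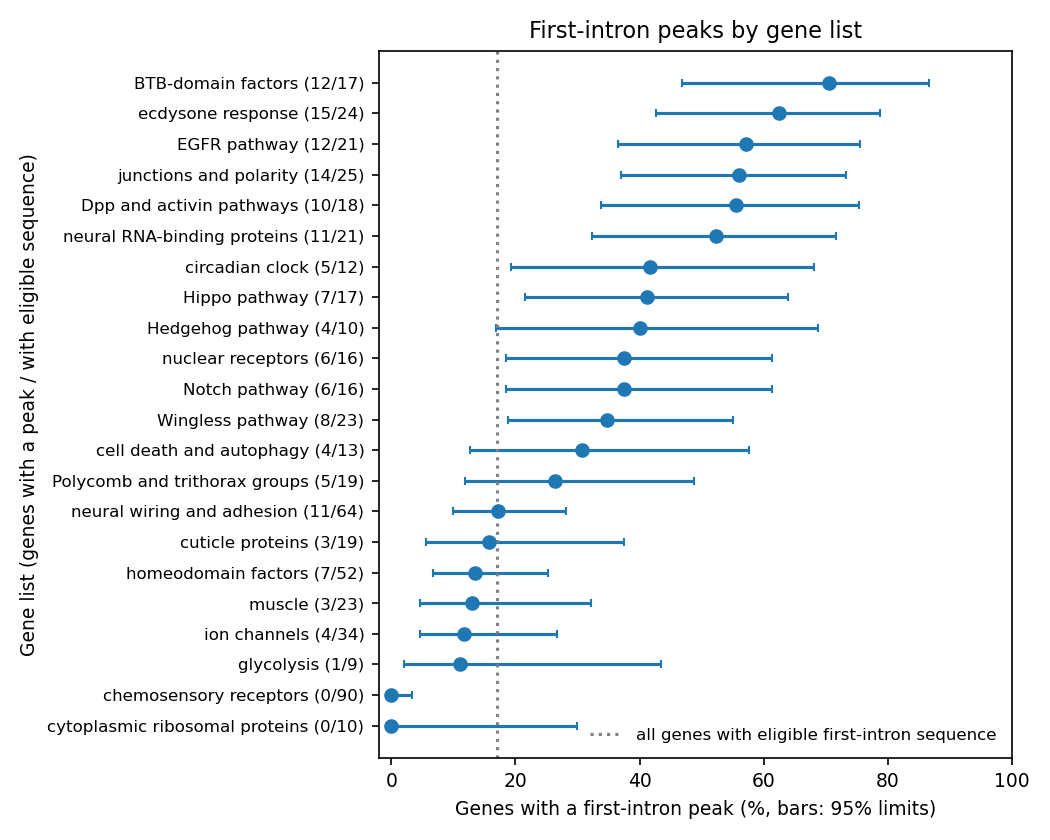
Points give the share of genes with eligible first-intron sequence that held a member, in percent (horizontal axis), for 22 gene lists. Bars are 95% Wilson intervals, or, for the 2 lists with a share of 0, run to the limit that 3 counts would give. The dotted line marks all genes at 17.0%. The BTB, ecdysone and EGFR lists stood at 70.6%, 62.5% and 57.1%, and ion channels at 11.8%.

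Members had less G+C at the summit than beside it. Within 50 bp of the summit the mean was 36.7%, and in windows of the same width centred 500 bp to each side it was 40.8%, a difference of -4.08 percentage points. Over all eligible first-intron bases G+C was 40.2%. The difference was -5.19 points in replicate 1's own list and -4.59 in replicate 2's. Later introns (-4.06 points) and intergenic peaks (-4.83) had similar values.

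The dip belonged to the stronger members. Members were split by signal into 5 groups of 436. Summit G+C was 31.3%, 34.6%, 37.1%, 38.6% and 41.8% from the strongest group to the weakest, while the flanks stayed between 40.4% and 41.3%. In the strongest group 85.1% of members had less G+C at the summit than in the flanks, and in the weakest 43.6% of members had. The weakest group held all 205 members with a q value over 0.05, whose summits averaged 43.8% G+C, beside 40% for the other 231 members of that group. Later-intron, intergenic and TSS-near peaks gave the same order of groups. Of the 15 strongest members, whose median was 27.7%, 12 had less G+C at the summit than in the flanks. The others were in dnr1 (61.4% at the summit and 40.1% in the flanks), Reph (34.7% and 26.7%) and CG9837 (26.7% and 20.8%).

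The dip was narrow and had shoulders. In the strongest group, G+C in bins of 50 bp was 31.5% and 31.0% on either side of the summit, 39.4% in the next bins and 46.4% at 150 to 200 bp to the left. On the right it reached 45.6% at 200 to 250 bp. Both shoulders stood above the 40.2% of first-intron sequence in general. In the weakest group the bins within 350 bp stayed between 40.3% and 42.6%.

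**Figure D5:**
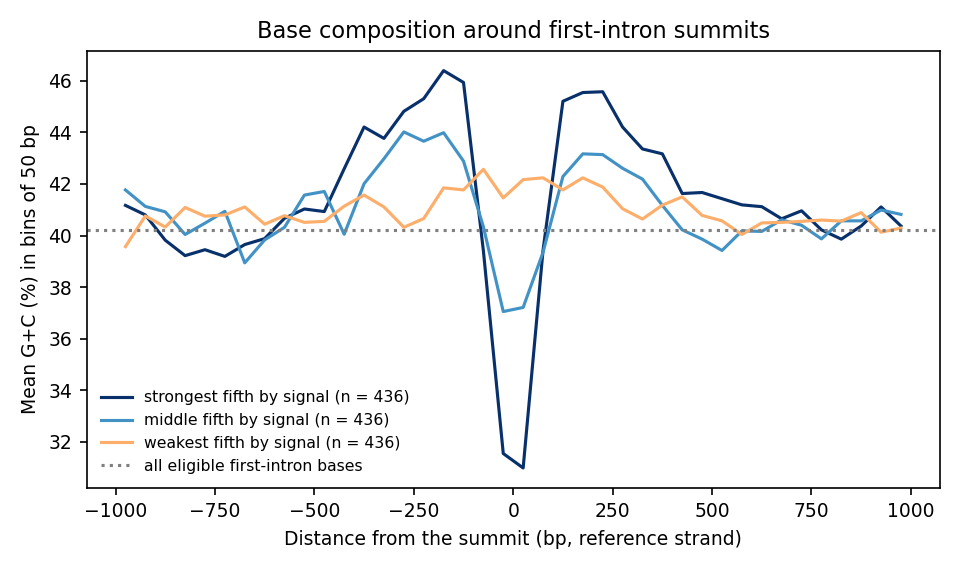
Lines give mean G+C in percent (vertical axis) in bins of 50 bp against distance from the summit in bp (horizontal axis), for the strongest, middle and weakest groups of 436 members by signal. The dotted line marks all eligible first-intron bases at 40.2%. The strongest group dips to 31.0% at the summit between shoulders of 46.4% and 45.6%, and the weakest shows no dip.

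Long A/T runs, as in the sequences printed above, followed the same pattern. An unbroken run of at least 10 A or T bases lay within 50 bp of 1011 summits (46.4%, interval 44.3% to 48.5%). It was in 33.1% of flank windows and in 35.7% of all 197738 windows of 101 bp that tile first-intron sequence. The share was 60.1% in the strongest group and 32.1% in the weakest. Later-intron summits had 47.8% and intergenic summits 50.5%.

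A set of 20 short motifs was looked for on both strands of the same windows. Most words of A and T alone were more frequent at summits than in flanks and in the tiling windows. The homeodomain word TAATTA was the exception, at 7.80% of summits, 6.67% of flank windows and 8.09% of tiling windows. AAAATA was at 31.4% of summits, 21.7% of flank windows and 22.6% of tiling windows. TATAAA, the TATA box, was at 19.3%, 12.2% and 12.8%. ATATAT was at 11.5%, 7.52% and 7.97%. Words with G and C were mostly rarer, as with GCCAT, the core of the Pleiohomeotic site, at 13.2%, 19.2% and 20.5%. The GATA site AGATAA (7.57%, 5.89% and 6.19%) was close to its flanks. The A run AAAAAA was at 28.5%, 23.3% and 21.5%. The nuclear receptor site AGGTCA was at 2.29% of summits, 2.66% of flank windows and 2.45% of tiling windows. The GAGA element GAGAGAG was at 2.39% (interval 1.82% to 3.11%), 2.71% and 1.48%, and its difference from the flanks changed sign with windows of 100 bp on each side (0.138 points) and with flanks at 1000 bp (0.115 points).

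G+C content itself differs between summits and flanks, so windows of like content were set side by side. Among windows with under 30% G+C, TATAAA was at 34.1% of summits, 34.5% of flank windows and 33.2% of tiling windows. Between 30% and 40% G+C it was at 19.2% of summits (interval 16.5% to 22.3%), 14.7% of flank windows and 15.8% of tiling windows, and between 40% and 50% at 7.38%, 6.39% and 6.44%. Under 30% G+C AAAATA was at 51.6%, 47.0% and 49.5%. It was at 29.5%, 29.3% and 28.9% between 30% and 40%, and at 4.35%, 4.08% and 4.43% at 50% or more. Between 40% and 50% G+C, AAAATA was at 20.7% of 420 summits (interval 17.1% to 24.8%) and 13.2% and 13.4% of flank and tiling windows. AAAAAA was at 37.7% of summits and 40.9% of flank windows under 30% G+C, and also below the flanks between 30% and 40%. From 40% up it was more frequent at summits, with 10.6% against 5.43% at 50% or more. ATATAT was at 22.8% and 20.9% under 30%, and at 8.84% and 9.02% between 30% and 40%. The excess at summits thus differed between bins of G+C. Between 30% and 40% G+C, GCCAT was at 12.5% of summits and 17.4% of flank windows.

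ACAGTG was more frequent beside the summit than at it in the strongest members. Within 50 bp of the summit it was at 160 of 2180 summits (7.34%, interval 6.32% to 8.51%), 4.54% of flank windows and 3.74% of tiling windows. It was at 6.61% of summits near TSSs, but at 4.36% of later-intron and 4.27% of intergenic summits. In windows of 30% to 40% G+C it was at 8.56% of summits against 3.88% of flank windows, and in windows of 40% to 50% at 11.2% against 5.29%. Within 50 bp the strongest group of members had it at 4.59% and the weakest at 8.94%.

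With windows of 100 bp on each side the order of these groups turned. ACAGTG was then at 18.8% of summits (interval 17.2% to 20.5%) and 8.44% of flank windows, a difference of 10.3 points where it was 2.80 with 50 bp. The strongest group had 23.4% (interval 19.7% to 27.6%) and the weakest 19.3% (interval 15.8% to 23.2%), and these intervals overlap. Where the word started 50 to 100 bp from the summit, it was in the strongest group at 13.3% of members to the left and 15.1% to the right. In the bins of 50 bp at the summit itself it was at 2.06% and 2.52% there, and at 450 to 500 bp at 2.06% on each side. In the weakest group the bins at 50 to 100 bp held it at 5.50% and 4.82%. Later-intron peaks had 6.90% and 6.99% in these bins, intergenic peaks 5.91% and 5.70%, TSS-near peaks 4.89% and 4.99%, and all members 7.02% and 7.25%. These distances were looked at after the data were seen. A word in a window is a description of the letters, and no binding by any factor was measured with it.

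Among all 6-letter words, ranked after the data were seen by their excess at summits over flanks, the leading 10 held only A and T. ATATTA was at 378 summits (17.3%), 8.81% of flank windows and 9.52% of tiling windows. Of the 50 words with the largest excess 32 held no G or C, and of the 50 with the largest deficit 0 did.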

How the data were processed

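ChIP-seq peak lists of 2 biological replicates were analysed. Per the labels, coordinates are in dm6. The authors deposited narrowPeak lists: a signal value per peak, of unstated scale, and −log10 values of the q value and of the global irreproducible discovery rate (IDR). Per the deposited notes the lists came from the IDR procedure, within each replicate or between both, and a further input of undescribed content entered the thresholded lists. The aligner and the peak caller were not given in the sources used here; read depth is unknown, so no depth-based interval was made.

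Summits were placed in Ensembl 115 gene models in the order near TSS (500 bp), exon, first intron, later intron, intron of a noncoding RNA and intergenic. The arm lengths of the RefSeq genome used for sequence equal those of dm6. Peaks on the 6 chromosome arms were used. Replicate signals are those of the nearest summit within 200 bp in each replicate's ranked list, and the main correlation uses the pair of input signals in the ranked list of the series, whose columns name no replicate. Overlap with a replicate's thresholded list was 1 bp or more. Scripts used Python 3.11.15, numpy 2.4.6, pandas 2.3.3 and scipy 1.17.1, and class assignment, composition and motif search were tested on simulated data. Genes named are hosts of the 15 strongest members, the genes with most members, up to 3 hosts per list by signal, those at the distance limit and CG32121; further genes in the list paragraphs were named for their role after their values were seen. For 5 list symbols a current symbol was found in the RefSeq gene table. Members, motifs and the 22 gene lists were chosen with earlier results of these data known. Alternatives were another list, each replicate alone, a stricter IDR, other TSS distances, a stricter definition of first intron, other windows and, chosen after seeing the data, leaving out peaks with q over 0.05.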

Additional observations from a re-analysis of the deposited data

How the results depend on the processing

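Each main result was recomputed with the other thresholded list, each replicate's own list, a −log10 global IDR of at least 3, TSS distances of 250 and 1000 bp, first intron in every transcript (strict), and, chosen after seeing the data, without peaks of q over 0.05. Directions held throughout except for the median signal ratio. With 1 replicate left out, the count of members ranged from 1336 to 1981, their share from 28.12% to 29.88%, the density ratio to later introns from 2.602 to 2.807, the median signal ratio from 0.9955 to 1.038, the G+C difference from -5.188 to -4.589 points, the share of genes with a member from 12.71% to 15.99%, the share of hosts with a promoter peak from 39.92% to 55.56% and the near-to-far density ratio (0.5 to 2 kb against over 10 kb, 2.194 as reported) from 2.418 to 2.488. With the stricter IDR these were 1229 members, a density ratio of 2.77, a G+C difference of -6.609, 12.18% of genes, 37.87% of hosts and a near-to-far ratio of 2.493. At 250 bp the share of peaks was 32.09% and that of genes 12.78%. At 1000 bp they were 21.94% and 20.59%, with a near-to-far ratio of 1.988. The strict definition gave 1268 members, 16.52% of peaks, a density ratio of 1.782 and a near-to-far ratio of 2.891. Without peaks of q over 0.05 the G+C difference was -4.772 and the near-to-far ratio 2.13, and with windows of 100 bp the G+C difference was -2.377. The correlation of replicate signals was 0.7742 by each replicate's own ranked list. The cause of these shifts was not tested, except that fewer peaks or bases enter under the stricter settings by construction. Of 80 recomputed motif differences 8 changed sign, over 6 motifs, whose reported differences from the flanks lay between -0.734 and 0.161 points. The unknown depth of the libraries and the lack of a control sample limit all densities.

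No paired analysis was possible because the samples form 1 group.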
